A study of Mus musculus with 12 samples.

Results

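Kidneys of sham-operated mice labelled as a Gpx3 knockout of renal tubular epithelial cells were compared with sham-operated wild-type kidneys, using 6 of the 12 libraries of the series and 11715 of its 13465 genes, those that reached 1 FPKM in 3 or more of the 6. FPKM is a fragment count scaled by transcript length and by the mapped fragments of the library, and each gene's value is the sum over its deposited transcripts. The series covers 4 groups of 3 mouse renal cortex libraries: both genotypes after sham surgery, and both after 30 minutes of bilateral ischemia with 48 hours of reperfusion (IRI). It asks how Gpx3 acts on renal function. The control group is labelled genotype WT and treatment Sham (WT sham 1 to 3), and the other group carries the tubule-restricted Gpx3 knockout with the same treatment (CKO sham 1 to 3). The Cre driver, the deleted exons, the strain, the age, the sex and the time of day of collection are not given in the sources used here. The labels do not say whether every library came from its own animal, and p-values therefore measure the spread between these libraries, which may be technical.

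Gpx3 encodes the secreted, selenium-containing glutathione peroxidase, which reduces hydrogen peroxide and organic hydroperoxides at the expense of glutathione. The kidney is known as the main source of the plasma enzyme, and the proximal tubule makes most of it. Knockout and wild-type sham kidneys have had surgery without ischemia, so this comparison concerns the genotype in tissue that was not clamped.

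Total FPKM per library ranged from 391002 to 422328. The number of reads behind these values is unknown. CKO sham 1 stood apart from the other 5 libraries. On the first principal component, which held 46.4% of the variance, it scored 44.3, while the others lay between -15.5 and -0.6. Its correlations with CKO sham 2 and 3 across genes were 0.9595 and 0.9579, against 0.9806 between those 2 and 0.9819 to 0.9822 among the WT sham libraries. The median SD per gene was 0.0976 (log2) in WT sham and 0.168 in CKO sham, and 0.0796 over CKO sham 2 and 3. Several list medians are given with and without CKO sham 1. The tissue label was checked with kidney markers: Slc34a1, the proximal tubular phosphate transporter, lay between 1138 and 1812 FPKM, and Umod, the uromodulin of the thick ascending limb, between 922 and 1304. Of 13 joint capsule and cartilage markers, examined because the extraction protocol speaks of joint tissue, 2 were tested, Comp at 0.680 to 1.63 FPKM and Fmod at 1.97 to 3.23.

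The targeted gene was still abundant in the knockouts but lower than in the controls, with no overlap. Gpx3 (chr11:54902453-54910377, plus strand, GRCm38) was at 5664, 4476 and 5371 FPKM in WT sham 1 to 3 and at 2501, 3037 and 3299 in CKO sham 1 to 3. All 3 knockout libraries lay below all 3 controls, and the knockout mean was 57.0% of the wild-type mean (2946 ± 407 against 5170 ± 619 FPKM, SD, n = 3 each). The log2 difference was -0.81 ± 0.14 (SE), which did not pass across all genes (limma, adjusted p = 0.193), and an exact two-sided permutation test gave p = 0.1, the smallest that 3 against 3 libraries allow. In bulk tissue, fewer cells of a type and less RNA per cell cannot be told apart, and RNA of cells outside the targeted epithelium counts toward the level.

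The 3 annotated Gpx3 transcripts are all in the deposited table and did not move alike. Gpx3-201 (1594 bases), which carries most of the signal, was at 5233, 4161 and 4912 FPKM in WT sham and 2182, 2967 and 3267 in CKO sham, so the groups did not overlap. Gpx3-203 (693 bases) was at 429, 313 and 457 FPKM in WT sham. In CKO sham it was at 319 in library 1, within the wild-type range, and at 68.1 and 28.8 in libraries 2 and 3. Neither transcript passed the test (limma on transcripts, adjusted p = 0.286 for Gpx3-201 and 0.404 for Gpx3-203). After IRI the genotypes overlapped at 2788, 3568 and 1075 FPKM for the Gpx3 sum in WT and 3723, 3025 and 2779 in CKO.

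At an adjusted p under 0.05, 11 of 11715 genes (0.0939%) changed with genotype, 7 higher (0.0598%) and 4 lower (0.0341%) in CKO sham. The unadjusted p was under 0.05 for 1936 genes (16.5%), 1105 of them higher. The 3 libraries of each group did not overlap for 1766 genes higher in CKO (15.1%) and 1637 lower (14%), and these shares are the background for the gene lists below. The median difference over all tested genes was 0.00797 (log2).

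Among the genes that rose, the splicing-related ones had the lowest p. Srsf4, a serine/arginine-rich splicing factor (chr4:131873617-131901706), was at 5.54, 5.06 and 4.71 FPKM in WT sham and at 27.5, 21.4 and 23.4 in CKO sham, a log2 difference of 2.03 ± 0.11 (SE, adjusted p = 0.00844). Luc7l, a protein related to a U1 snRNP component (chr17:26252896-26285504), was at 0.30002, 0.386 and 0.651 FPKM in WT sham and at 8.61, 6.63 and 6.45 in CKO sham, a difference of 2.51 ± 0.15 (adjusted p = 0.00844). For each of them 1 transcript is in the table, out of 4 annotated for Srsf4 and 9 for Luc7l, so RNA in the other transcripts of these genes is not part of the sums. Sums are partial also for Jmjd4 (1 of 4 annotated transcripts), Sfrp2 (1 of 3), Mylip (1 of 2) and Metrnl (2 of 3). The same holds for Zfp422 (2 of 4), Map3k7 (2 of 9), Btbd2 (3 of 5) and Ppp6r2 (2 of 8). Jmjd4, a lysyl hydroxylase that acts on a translation release factor (chr11:59450045-59458567), was at 0.622, 0.405 and 0.586 FPKM in WT sham and at 2.44, 2.54 and 2.68 in CKO sham. Its difference was 1.21 ± 0.11 (adjusted p = 0.0389). Jmjd4 overlaps Snap47, Sfrp2 an antisense RNA and Luc7l an antisense RNA and a pseudogene. Srsf4 overlaps A930004J17Rik on the same strand and Gm12992 on the opposite strand. Map3k7 overlaps a pseudogene and a small nuclear RNA, and Ppp6r2 a long noncoding RNA. No source used here states whether reads were counted by strand, so these values are uncertain.

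Another 2 genes that rose encode secreted proteins. Sfrp2, a secreted Wnt antagonist (chr3:83766321-83774316), was at 1.16, 1.24 and 0.885 FPKM in WT sham and at 4.94, 4.00 and 5.24 in CKO sham, a difference of 1.45 ± 0.13 (adjusted p = 0.0389). Metrnl, the hormone meteorin-like (chr11:121701544-121716306), was at 13.5, 12.4 and 11.7 FPKM in WT sham and at 24.6, 24.1 and 22.8 in CKO sham, a difference of 0.88 ± 0.08 (adjusted p = 0.0432). The spread within each group was small beside the gap for both. Btbd2, a BTB-domain protein (chr10:80642617-80657071), was at 8.58, 9.02 and 9.61 FPKM in WT sham and at 17.6, 18.3 and 20.8 in CKO sham, a difference of 0.98 ± 0.09 (adjusted p = 0.0432). Zbed6, a transcriptional repressor of Igf2 derived from a DNA transposon (chr1:133655879-133660885), was at 0.0355, 0.0505 and 0.0262 FPKM in WT sham and at 1.151, 1.53 and 1.64 in CKO sham, a difference of 1.23 ± 0.12 (adjusted p = 0.0492). Zbed6 lies inside Zc3h11a on the same strand, so reads of these genes can be shared, and its value is uncertain.

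The 4 genes that fell were Zfp422, Map3k7, Mylip and Ppp6r2. Zfp422, a zinc finger protein (chr6:116624016-116628999), was at 12.5, 10.04 and 10.2 FPKM in WT sham and at 1.51, 1.41 and 1.09 in CKO sham, a difference of -2.34 ± 0.12 (adjusted p = 0.00844). Map3k7, the kinase TAK1 that relays TGF-beta, interleukin-1 and TNF signals (chr4:31964097-32023467), was at 9.77, 11.3 and 10.7 FPKM in WT sham and at 3.44, 2.95 and 2.81 in CKO sham, a difference of -1.51 ± 0.10 (adjusted p = 0.0126). Mylip, the ubiquitin ligase IDOL that degrades the LDL receptor (chr13:45389742-45412022), was at 26.3, 28.4 and 30.6 FPKM in WT sham and at 11.9, 13.9 and 12.01 in CKO sham. Its difference was -1.11 ± 0.10 (adjusted p = 0.0389). Ppp6r2, a regulatory subunit of protein phosphatase 6 (chr15:89211553-89287010), was at 5.55, 6.396 and 6.78 FPKM in WT sham and at 1.43, 1.58 and 2.22 in CKO sham, a difference of -1.41 ± 0.14 (adjusted p = 0.0492).

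**Figure D1:**
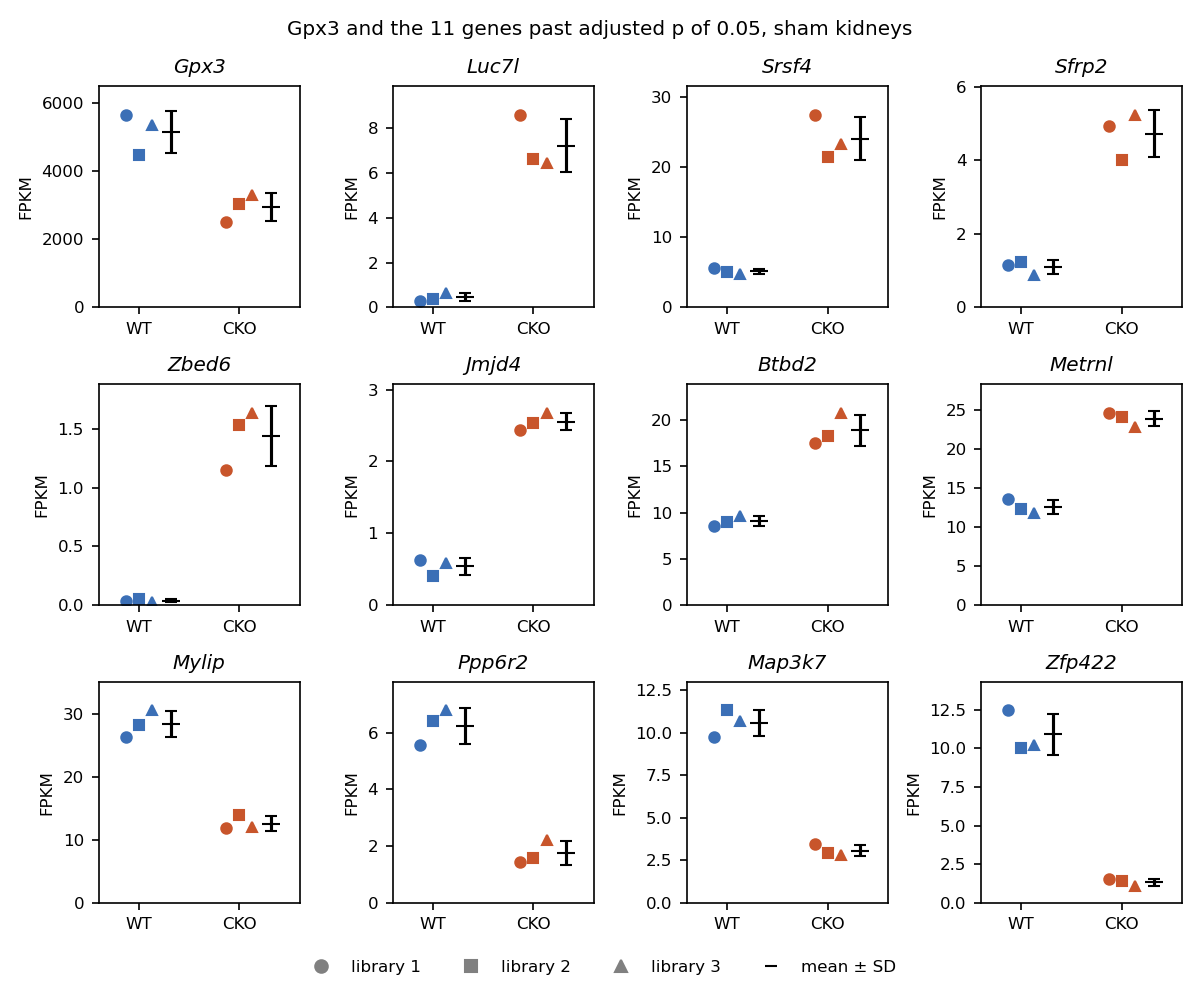
Values of Gpx3 and of the 11 genes past an adjusted p of 0.05 in each sham library (vertical axes, FPKM from 0; points, libraries 1 to 3 of WT and CKO; bars, mean and SD of 3). Every panel shows 2 groups that do not overlap, for example Zfp422 at 10.04 to 12.5 in WT and 1.09 to 1.51 in CKO.

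The number of calls depended on which library was left out. Without WT sham 1, 2 or 3, or without CKO sham 3, limma called 0 genes, with 1278, 1147, 1000 and 1937 genes at an unadjusted p under 0.05. Without CKO sham 1, 3 genes were called higher and 8 lower, and 3 of the original 11 were among them, namely Srsf4, Map3k7 and Zfp422. Without CKO sham 2, the counts were 3 and 5, with Srsf4 and Zfp422 shared. Jmjd4, Luc7l and Zbed6 drop below the filter when a knockout library is left out and were not tested there. With a spread shared by all 12 libraries, no gene passed, with 796 at an unadjusted p under 0.05.

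The genes of next smallest p whose groups did not overlap did not pass. Ddc, the enzyme that makes renal dopamine, was at 91.1, 83.4 and 86.5 FPKM in WT sham and 56.5, 54.7 and 56.6 in CKO sham, with a difference of -0.63 (adjusted p = 0.0507). Irs2, an adaptor of the insulin receptor, was at 12.04, 11.8 and 10.2 against 5.07, 4.00 and 3.48 FPKM (-1.26, adjusted p = 0.0708). Egf, the growth factor made by the distal nephron, was at 451, 469 and 464 against 310, 341 and 313 FPKM (-0.52, adjusted p = 0.116). Errfi1, an inhibitor of the EGF receptor, was at 253, 259 and 268 against 126, 163 and 119 FPKM (-0.94, adjusted p = 0.132). For these 4 genes every knockout library lay below every control. Cttnbp2, Tpm3, Atg16l1 and Gpm6b followed with differences between -1.29 and -0.55 and adjusted p between 0.0744 and 0.141. On the other side, G0s2, an inhibitor of adipose triglyceride lipase, was at 20.7, 20.8 and 14.8 FPKM in WT sham and 43.7, 45.5 and 54.3 in CKO sham (1.32, adjusted p = 0.0902). Psmg1, a proteasome assembly chaperone, was at 11.6, 12.8 and 13.2 against 20.5, 24.5 and 26.1 FPKM (0.86, adjusted p = 0.122). Iigp1, Ndufa12 and Ptn had differences of 0.95, 0.40 and 0.60 (adjusted p between 0.145 and 0.15). When libraries were weighted by their fit, Ddc, Irs2, Cttnbp2, Tpm3, Atg16l1, Egf and Psmg1 passed as well, with CKO sham 1 given a weight of 0.197 and the other libraries 1.305 to 1.501.

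None of the other glutathione peroxidases passed the test in either direction (limma). Gpx4, the membrane-protecting lipid hydroperoxidase, was at 507, 493 and 480 FPKM in WT sham and 631, 565 and 567 in CKO sham (0.25, adjusted p = 0.245). Gpx6 was at 28.5, 38.1 and 31.4 against 68.3, 48.6 and 41.3 FPKM (0.65, adjusted p = 0.258), and Gpx8 at 14.5, 13.6 and 14.0 against 23.4, 18.4 and 16.6 (0.43). For these 3 the knockout libraries all lay above the controls, and none passed. Gpx1, the abundant cytosolic form, overlapped widely, at 1007, 249 and 1012 FPKM in WT sham and 872, 1052 and 299 in CKO sham. Of 6 peroxidases tested, 3 were higher and 1, Gpx3 itself, lower with no overlap, beside 15.1% and 14% of all genes.

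In the other antioxidant lists 0 members passed by limma's adjusted p. Of 6 metallothionein and acute stress genes, 3 were higher and 0 lower with no overlap (median 0.22), and these 3 had an unadjusted p under 0.05. Mt2, a metal-binding metallothionein, was at 65.3, 68.9 and 84.4 FPKM in WT sham and 124, 96.1 and 127 in CKO sham (0.66), and Mt1 at 166, 177 and 201 against 314, 211 and 263 (0.52). Among 21 superoxide dismutases, catalase, peroxiredoxins and thioredoxins, 7 were higher and 4 lower with no overlap (median 0.05), and 6 and 4 had an unadjusted p under 0.05. Sod1, the cytosolic superoxide dismutase, was at 630, 612 and 600 FPKM in WT sham and 875, 743 and 734 in CKO sham (0.35). Prdx6, a peroxiredoxin with phospholipase activity, was at 49.1, 58.9 and 62.2 against 33.0, 41.7 and 32.5 FPKM (-0.65), and Txnip, the thioredoxin inhibitor, at 115, 122 and 125 against 85.3, 96.5 and 82.0 (-0.45). Among 21 targets of NRF2, the master regulator of antioxidant genes, 3 were higher and 4 lower with no overlap (median -0.05), and 1 and 5 had an unadjusted p under 0.05. Gsr, glutathione reductase, was at 80.4, 66.9 and 76.8 against 57.5, 61.5 and 55.0 FPKM (-0.36), and Gss, glutathione synthetase, at 154, 132 and 162 against 217, 185 and 180 FPKM (0.38). Tkt, transketolase of the pentose phosphate pathway, was at 84.6, 57.9 and 61.0 against 12.02, 44.5 and 36.9 FPKM (-1.27), and Osgin1, an oxidative stress-induced growth inhibitor, at 4.83, 7.34 and 4.26 against 33.7, 7.64 and 7.49 FPKM (1.11). In these 4 the groups did not overlap. Nqo1 at 26.2, 25.6 and 22.7 against 32.7, 29.2 and 25.5 FPKM and Hmox1 at 33.5, 23.4 and 20.9 against 19.2, 25.0 and 33.6, 2 of its classical targets, overlapped between the groups. Of 23 selenoproteins and selenium-handling genes, 3 were higher and 4 lower with no overlap, and of 17 ferroptosis and iron genes, 1 and 3.

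Interferon response genes stood higher in the knockout sham kidneys. Of 31 tested members 24 were higher in all 3 knockout libraries than in all 3 controls, none was lower, and the median difference was 0.57, beside 15.1% higher and a median of 0.00797 over all genes. No member passed on its own (limma, adjusted p of 0.145 or more), while 21 had an unadjusted p under 0.05. Interferons are cytokines of antiviral defence whose receptors activate transcription factors in the responding cell. These and the interferon regulatory factors bind short elements in the promoters of the target genes.

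The promoters of 4 members are shown because the elements that group these genes can be read in them. The windows run from 250 bases before to 50 after a RefSeq transcription start on build GRCm38.p6, from RefSeq, and read 5′ to 3′ along the gene. Capitals mark the interferon-stimulated response element, searched on both strands as GAAA, any pair of bases and GAAA again, in Ifit1 at chr19:34640639-34640938 (plus strand), Ifit3 at chr19:34583279-34583578 (plus strand) and Isg15 at chr4:156200769-156201068 (minus strand). In Isg15 the 3 matches overlap. In Irf1 at chr11:53769764-53770063 (plus strand) capitals mark the gamma-activated site, TTCNNNGAA.
Ifit1: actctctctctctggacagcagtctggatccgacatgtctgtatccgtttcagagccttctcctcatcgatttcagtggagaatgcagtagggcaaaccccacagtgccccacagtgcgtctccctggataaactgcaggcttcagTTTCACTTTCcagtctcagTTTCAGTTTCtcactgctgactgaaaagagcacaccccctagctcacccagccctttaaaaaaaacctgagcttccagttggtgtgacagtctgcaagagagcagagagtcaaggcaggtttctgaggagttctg
Ifit3: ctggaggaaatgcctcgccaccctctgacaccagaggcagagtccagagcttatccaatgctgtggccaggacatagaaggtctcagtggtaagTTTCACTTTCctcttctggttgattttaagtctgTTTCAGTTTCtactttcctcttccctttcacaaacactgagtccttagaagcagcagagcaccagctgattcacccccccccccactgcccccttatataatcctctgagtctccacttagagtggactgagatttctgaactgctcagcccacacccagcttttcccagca
Isg15: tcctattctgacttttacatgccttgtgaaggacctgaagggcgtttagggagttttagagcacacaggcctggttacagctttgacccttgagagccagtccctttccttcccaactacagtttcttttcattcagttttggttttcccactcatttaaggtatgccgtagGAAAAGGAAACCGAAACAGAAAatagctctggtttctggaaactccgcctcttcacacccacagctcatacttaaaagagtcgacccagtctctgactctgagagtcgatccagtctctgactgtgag
Irf1: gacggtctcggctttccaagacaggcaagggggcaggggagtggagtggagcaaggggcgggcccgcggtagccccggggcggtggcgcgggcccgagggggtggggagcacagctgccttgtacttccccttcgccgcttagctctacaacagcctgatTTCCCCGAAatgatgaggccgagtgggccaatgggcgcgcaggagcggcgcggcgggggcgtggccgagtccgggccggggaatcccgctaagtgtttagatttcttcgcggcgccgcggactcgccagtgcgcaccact

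A promoter window was matched by symbol for 26 of the 31 members. The interferon-stimulated response element was present in 16 of the 26 (61.5%), against 338 of 9215 tested genes (3.67%) and 1079 of 27025 genes of any kind (3.99%). It was in 12 of the 19 members whose groups did not overlap and in 4 of the 7 whose groups did. The gamma-activated site was in 8 of the 19 and 0 of the 7, against 8.29% of tested genes. In Irf1 a window at a different start lacks it. A match describes the letters of the window and does not show that a factor was bound.

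Among the transcription factors, Irf1, induced by interferon gamma, was at 7.88, 7.50 and 8.98 FPKM in WT sham and at 13.2, 12.5 and 12.5 in CKO sham (0.59 ± 0.09, SE, adjusted p = 0.15). Irf7, which amplifies type I interferon production, was at 1.54, 2.34 and 3.23 against 5.82, 5.02 and 4.02 FPKM (0.84). In both the groups did not overlap, whereas Stat2, at 2.68, 2.73 and 2.89 against 3.44, 2.82 and 2.76, did.

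Among the antiviral effectors, Ifit1, an RNA-binding protein, was at 2.04, 1.77 and 2.52 FPKM in WT sham and at 7.67, 4.80 and 3.86 in CKO sham (1.02 ± 0.23). Ifit3 was at 10.5, 13.5 and 12.5 against 38.1, 23.1 and 18.2 FPKM (1.00), and Isg15, a ubiquitin-like modifier, at 5.74, 5.68 and 5.23 against 15.6, 8.97 and 9.30 (0.87). CKO sham 1 held the highest value of each. Iigp1, an immunity-related GTPase, was at 4.64, 4.03 and 4.69 against 10.5, 10.4 and 7.88 FPKM (0.95 ± 0.13, adjusted p = 0.145). Usp18, which removes Isg15 from proteins, was at 1.78, 1.83 and 2.20 against 4.04, 3.15 and 3.18 FPKM (0.60). Cxcl9, a chemokine induced by interferon gamma, was at 1.07, 0.715 and 0.585 against 2.15, 2.97 and 1.58 FPKM (0.84), and B2m, the light chain of MHC class I, at 324, 291 and 278 against 519, 405 and 379 (0.53). Ifi27l2a, an interferon-induced protein, was at 11.8, 14.1 and 13.9 against 43.3, 24.7 and 20.5 FPKM (1.03). Rsad2 and Oasl2, also antiviral, overlapped, with differences of 0.13 and 0.15.

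Without CKO sham 1 the median was 0.44. In both remaining knockout libraries 25 of the 31 (80.6%) then lay above all controls, beside 19.7% of all genes. Leaving out a library cannot lower such a count, so it is no check on the count with all libraries. By library, the median member stood 0.80, 0.57 and 0.32 (log2) above its wild-type mean in CKO sham 1, 2 and 3. The medians of the WT sham libraries lay between -0.03 and 0.06.

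**Figure D2:**
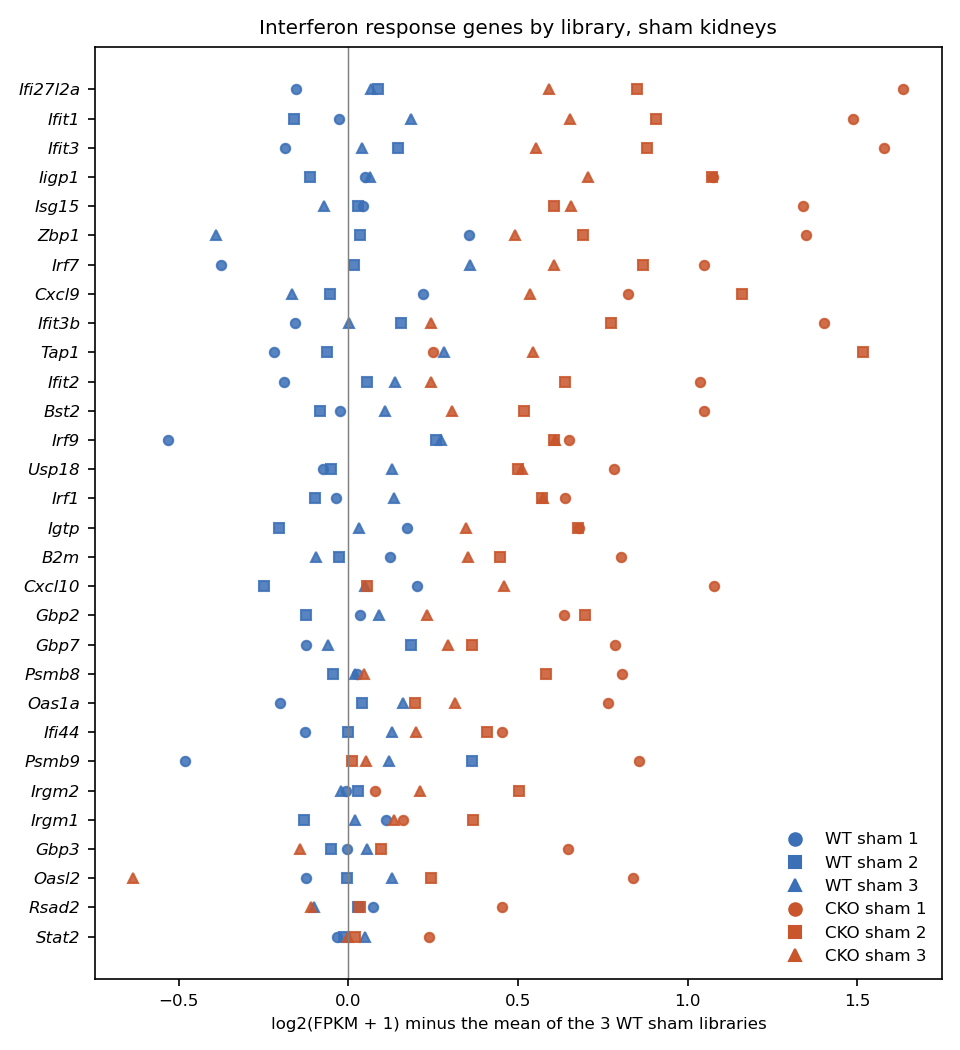
Each row is 1 of 30 of the 31 tested interferon response genes and each point 1 sham library, at its log2(FPKM + 1) minus the mean of the WT sham libraries (horizontal axis). The WT points sit around 0 and most CKO points to the right, with CKO sham 1 often farthest, as for Isg15 at 15.6 FPKM.

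Markers of immune cells, vessels and stroma were examined in the same libraries, and 0 passed (limma). At an unadjusted p under 0.05, 5 macrophage, 7 endothelial and 7 fibroblast markers were higher and 0, 0 and 1 lower. Of 21 macrophage and monocyte markers, 6 were higher and 1 lower with no overlap, with a median of 0.29, and their summed level was 188 to 210 FPKM in WT sham and 338, 238 and 230 in CKO sham. Lyz2, the lysozyme of phagocytes, was at 18.1, 22.3 and 25.7 against 45.4, 37.0 and 37.0 FPKM, and Tyrobp, a myeloid signalling adaptor, at 9.85, 9.71 and 11.4 against 23.2, 16.6 and 14.9. Defining T, NK, B and neutrophil genes were sparse, and 0 of those tested had groups that did not overlap: 4 of 18, 2 of 14 and 2 of 12 listed markers were tested, with summed levels up to 18.5, 4.63 and 17.8 FPKM, each highest in CKO sham 1. Of 23 endothelial markers, 9 were higher and 1 lower (median 0.24), and their sum was 479 to 487 FPKM in WT sham and 647, 494 and 523 in CKO sham. Of 27 fibroblast, pericyte and matrix genes, 7 were higher and 1 lower (median 0.34). Vim, the mesenchymal intermediate filament, was at 15.3, 16.1 and 14.0 against 29.7, 19.1 and 22.6 FPKM. Without CKO sham 1 the medians were 0.18 for macrophage, 0.05 for endothelial and 0.22 for fibroblast genes, against 0.44 for the interferon genes. The part of these cell types in the interferon difference was not tested.

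Inflammatory cytokine genes had no common direction that held under all filters. Of 23 members of the NF-kB and cytokine list, 8 were higher and 1 lower with no overlap, and 0 passed (limma), with 7 and 0 at an unadjusted p under 0.05. The median of 0.24 became 0.13 without CKO sham 1 and turned to -0.09 with a filter of 5 FPKM. Ccl3, a macrophage chemokine, was at 0.414, 0.460 and 3.80 FPKM in WT sham and 4.88, 4.75 and 11.1 in CKO sham (1.79), and Cxcl2, a neutrophil chemokine, at 0.132, 0.0404 and 1.08 against 1.97, 1.72 and 3.25 (1.27). WT sham 3 and CKO sham 3 held the highest value of their groups in both. Ccl4, a related chemokine, was at 0.494, 0.255 and 2.20 against 2.63, 2.58 and 3.31 FPKM (1.08).

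Markers of tubular injury had library medians of 0.61, 0.13 and 0.12 in CKO sham 1, 2 and 3, and 0 passed (limma), with 6 higher and 1 lower at an unadjusted p under 0.05. Of 29 tested markers, 9 were higher and 3 lower with no overlap, with a median of 0.30 that became 0.14 without CKO sham 1. Tmsb10, an actin-binding peptide of injured tubules, was at 63.0, 66.3 and 80.4 FPKM in WT sham and 139, 99.1 and 111 in CKO sham (0.72). Anxa2, a membrane-binding annexin, was at 12.7, 14.5 and 14.4 against 29.1, 18.2 and 17.7 FPKM (0.58). Havcr1, the injury marker KIM-1, stayed low and overlapped, at 1.10, 0.669 and 3.36 against 1.69, 1.67 and 3.05 FPKM. Lcn2, the marker NGAL, also overlapped, at 5.13, 6.45 and 4.05 against 14.7, 7.27 and 4.78. Of 22 immediate early genes 0 were higher and 1 was lower with no overlap.

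No member of the nephron segment lists passed (limma), and the segments differed in the direction of their medians. Of 15 thick ascending limb genes, 4 were higher and 3 lower with no overlap, with a median of 0.15 and library medians of 0.38, 0.20 and 0.06 in CKO sham 1, 2 and 3. Without CKO sham 1 the median of this list was 0.035. Cldn19, a claudin of magnesium reabsorption, was at 15.7, 17.9 and 16.9 FPKM in WT sham and 38.3, 23.1 and 19.6 in CKO sham (0.60). Of 15 genes of the distal convoluted and connecting tubule, 9 were lower and 2 higher with no overlap (median -0.33, beside 14% lower over all genes), and 6 had an unadjusted p under 0.05 in the lower direction. Slc12a3, the thiazide-sensitive sodium chloride cotransporter, was at 276, 238 and 309 FPKM in WT sham and 160, 192 and 186 in CKO sham (-0.61 ± 0.12, SE, adjusted p = 0.224). Calb1, the calcium-binding calbindin, was at 150, 147 and 138 against 62.2, 107 and 108 FPKM (-0.69), and Trpv5, the apical calcium channel, at 7.83, 8.19 and 7.97 against 3.19, 4.64 and 6.19 (-0.70). Slc8a1, the sodium-calcium exchanger, was at 11.3, 10.8 and 11.99 against 1.46, 5.79 and 4.80 FPKM (-1.42). Stk39, the kinase SPAK that activates the cotransporter, was at 7.50, 7.61 and 7.97 against 6.09, 6.30 and 5.70 (-0.31). Against this direction, S100g, another calcium-binding protein, was at 730, 633 and 680 against 850, 735 and 853 FPKM, and Pvalb overlapped. CKO sham 1 had the lowest value of several members, and the list's median without it was -0.26.

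In the collecting duct, acid-base and sodium genes were examined by cell type. Of 16 intercalated cell genes, 8 were lower and 0 higher with no overlap (median -0.22, and -0.14 without CKO sham 1). Insrr, an alkali-sensing receptor, was at 13.8, 13.4 and 12.8 FPKM in WT sham and 9.60, 8.82 and 9.84 in CKO sham (-0.46 ± 0.08, adjusted p = 0.193). Slc4a9, a bicarbonate transporter of beta cells, was at 49.7, 46.3 and 55.2 against 33.7, 33.1 and 38.7 FPKM (-0.51). Atp6v1b1 and Atp6v0a4, subunits of the proton pump, differed by -0.58 and -0.84. Slc4a1 and Foxi1, the anion exchanger and the transcription factor of these cells, overlapped, with differences of -0.03 and 0.02. Of 12 principal cell genes 5 were lower and 2 higher with no overlap. Scnn1g, a subunit of the epithelial sodium channel, was at 23.2, 22.4 and 23.8 against 13.2, 18.9 and 17.0 FPKM (-0.49), and Aqp2, the vasopressin-regulated water channel, at 103, 120 and 99.0 against 161, 126 and 109.

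Genes of hormone systems that act on the kidney were described by 2 lists, in which 0 members passed (limma) and 6 of each were lower at an unadjusted p under 0.05. Of 21 renin-angiotensin, phosphate and vitamin D genes, 8 were lower and 1 higher with no overlap, with a median of -0.22 that was -0.11 without CKO sham 1. The library medians were -0.53, -0.10 and -0.14 in CKO sham 1, 2 and 3. Cyp27b1, which activates vitamin D, was at 4.62, 3.83 and 4.66 FPKM in WT sham and 2.20, 2.46 and 1.30 in CKO sham (-0.86). Cyp24a1, which degrades it, was at 37.3, 37.7 and 43.4 against 14.8, 29.5 and 22.2 (-0.85), so both enzymes stood lower. Kl, the FGF23 coreceptor klotho, was at 190.02, 191 and 202 against 87.1, 160 and 160 FPKM (-0.57). Ren1, renin, overlapped, at 101, 52.8 and 78.1 against 115, 117 and 96.3. Of 19 glucocorticoid and mineralocorticoid targets 6 were lower and 3 higher. Sgk1, the aldosterone-induced kinase, was at 77.7, 73.4 and 85.4 against 51.8, 50.1 and 33.4 FPKM (-0.82), while Zbtb16, another steroid target, was at 0.396, 0.410 and 0.443 against 2.86, 2.18 and 1.25 (1.09).

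Transport genes of the proximal tubule had medians of -0.42, -0.05 and -0.04 relative to wild type in CKO sham 1, 2 and 3. Of 42 transport and endocytosis genes 8 were lower and 1 higher with no overlap, and the median of -0.17 was -0.07 without CKO sham 1. Of 40 proximal tubule enzyme genes, 7 were higher and 5 lower with no overlap. Their median of -0.057 became 0.035 without CKO sham 1. Lrp2, the endocytic receptor megalin, was at 170, 183 and 181 FPKM in WT sham and 106, 173 and 162 in CKO sham. Slc22a12, the urate transporter, was at 481, 462 and 488 against 316, 389 and 394 (-0.39). Papillary and urothelial genes went the other way: 4 of 7 were higher and 0 lower, and their summed level was 56.4 to 69.8 FPKM in WT sham and 139, 87.8 and 77.3 in CKO sham. Erythroid genes varied within both groups, summing to 148 to 389 FPKM in WT sham and 767, 505 and 197 in CKO sham. The 3 tested adipose markers summed to 297 to 351 FPKM and to 587, 291 and 213. Their part in the nephron segment differences was not tested.

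**Figure D3:**
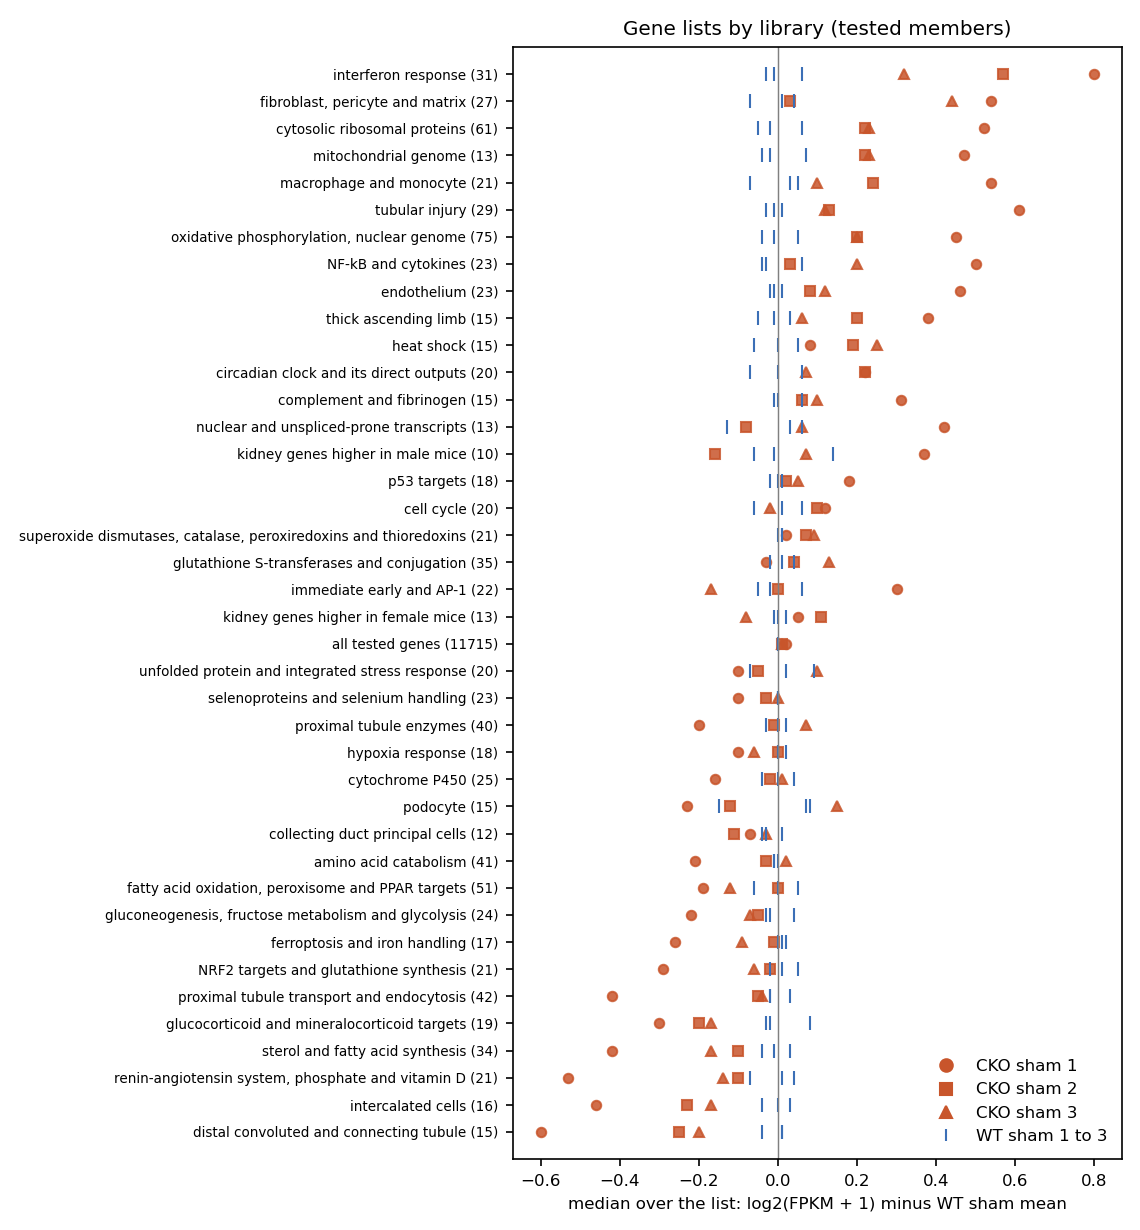
For each gene list with at least 10 tested members (number in brackets), the median over members of log2(FPKM + 1) minus the wild-type mean is shown for each CKO sham library (symbols) and WT sham library (ticks). CKO sham 1 is the most distant library in most lists, with -0.60 for the distal convoluted and connecting tubule and 0.80 for the interferon response, and CKO sham 2 and 3 lie on the same side of 0 in those 2 lists.

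In lipid metabolism 0 genes of the lists passed (limma), and 6 synthesis and 8 oxidation genes were lower at an unadjusted p under 0.05. Of 34 sterol and fatty acid synthesis genes, 12 were lower and 0 higher with no overlap (median -0.21, and -0.14 without CKO sham 1). Scd2, a stearoyl-CoA desaturase, was at 30.2, 27.1 and 24.8 FPKM in WT sham and 15.5, 20.7 and 18.4 in CKO sham (-0.57), and Acly, which supplies cytosolic acetyl-CoA, at 61.1, 55.8 and 64.0 against 27.7, 46.7 and 38.5 (-0.69). The regulators Srebf1 and Srebf2 differed by -0.38 and -0.39 with no overlap. Of 51 fatty acid oxidation and PPAR target genes 13 (25.5%) were lower and 2 higher, with a median of -0.10. Acot12, an acyl-CoA thioesterase, was at 29.9, 28.9 and 32.9 against 21.3, 24.3 and 24.7 FPKM (-0.37), and Cpt1a, the gate of mitochondrial import, at 102, 107 and 120 against 62.7, 97.2 and 83.2 (-0.45).

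Core clock genes showed members on both sides. The molecular clock is a loop in which Arntl and Clock drive the Per, Cry and Nr1d genes, which in turn repress them. Arntl was at 1.62, 1.56 and 1.75 FPKM in WT sham and 0.784, 0.752 and 0.601 in CKO sham (-0.63 ± 0.10, SE, adjusted p = 0.182). Dbp, a direct output of that loop, was at 59.2, 64.3 and 69.9 against 104, 88.4 and 104 FPKM (0.61 ± 0.10, adjusted p = 0.175). Per2 was at 5.51, 6.41 and 7.04 against 12.8, 9.10 and 9.41 (0.63), and Nr1d1 at 48.1, 53.9 and 51.2 against 65.4, 59.2 and 72.3 (0.35). Per1 was lower, at 18.6, 19.3 and 30.3 against 17.0, 10.5 and 7.30 (-0.95). Of 20 tested clock genes 10 were higher and 3 lower with no overlap, 0 passed (limma), and 8 and 3 had an unadjusted p under 0.05. Without CKO sham 1 these counts were 11 and 3, beside 19.7% higher and 18.7% lower over all genes. Such counts cannot fall when a library is left out. Genotype and the hour of collection, which is not given, cannot be told apart.

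Among conjugating enzymes, the Ugt1a genes, which share exons and are hard to separate by short reads, differed in direction within their locus. Ugt1a2 was at 465, 342 and 404 FPKM in WT sham and 199, 227 and 217 in CKO sham (-0.90, adjusted p = 0.15), and Ugt1a1 at 77.6, 61.7 and 79.2 against 44.2, 26.9 and 33.9 (-1.06). Ugt1a6a was at 37.4, 69.0 and 41.8 against 26.3, 18.8 and 20.03 FPKM (-1.11). Ugt1a9 was at 9.01, 7.76 and 9.47 in WT sham and at 8.57, 154 and 147 in CKO sham, so CKO sham 1 lay within the wild-type range. Ugt1a6b was at 2.05, 5.05 and 4.17 against 4.45, 76.7 and 71.3. Gstt1, a glutathione S-transferase, was at 135, 130 and 123 against 170.5, 157 and 187 (0.40). Of 35 conjugation genes 11 were higher and 3 lower with no overlap, with a median of 0.07.

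Genes of the respiratory chain and the ribosome were a little higher as a body, and they have short transcripts. Of 75 nuclear oxidative phosphorylation genes 54 were higher and 3 lower with no overlap (median 0.29), of 13 genes of the mitochondrial genome 12 and 0 (median 0.30), and of 61 cytosolic ribosomal protein genes 49 and 0 (median 0.32), and 0 passed (limma) while 50, 12 and 46 had an unadjusted p under 0.05 in that direction. Ndufa12, a complex I subunit, was at 94.5, 94.3 and 90.6 FPKM in WT sham and 125, 121 and 125 in CKO sham (0.40). mt-Nd3, a complex I subunit made in mitochondria, was at 692, 740 and 665 against 1188, 957 and 1125 (0.64), and Rpl38, a large-subunit protein, at 289, 288 and 260 against 436, 357 and 352 (0.45). The median transcript length was 838, 784 and 860 bases in these lists and 2774 over all tested genes.

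The difference between genotypes varied with transcript length over all genes. Genes were ordered by transcript length and divided into 10 groups. In the shortest group (204 to 1145 bases) the median difference was 0.26 (log2), in the fourth group (1943 to 2328 bases) 0.002 and in the eighth (3838 to 4585 bases) -0.08. The shortest group stood 0.42, 0.17 and 0.19 above the wild-type mean in CKO sham 1, 2 and 3, and between -0.03 and 0.05 in the WT sham libraries. With a smooth trend on length removed in each library, an alternative chosen after seeing the data, the medians became 0.02 for nuclear oxidative phosphorylation, 0.10 for the mitochondrial genome and 0.05 for ribosomal proteins. Members higher at an unadjusted p under 0.05 then numbered 13, 2 and 12. The interferon median was 0.54 and the distal convoluted median -0.34 under the same correction, with 21 and 7 members at an unadjusted p under 0.05. RNA integrity values are not given in the sources used here.

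**Figure D4:**
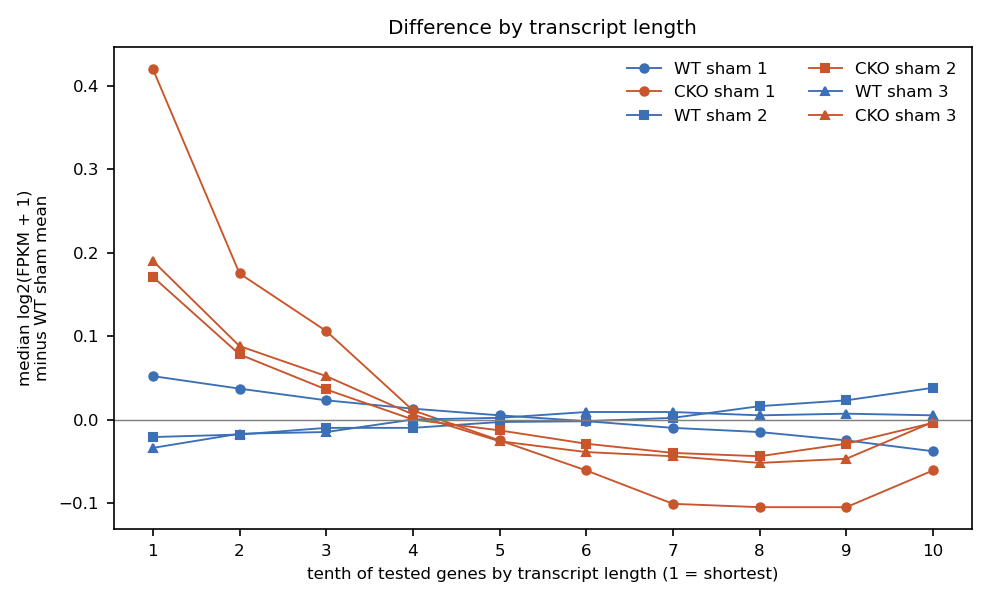
Tested genes were divided into 10 groups of 1171 or 1172 by transcript length (horizontal axis), and the median log2(FPKM + 1) minus the wild-type mean is shown for each sham library (vertical axis). The CKO libraries fall from 0.42, 0.17 and 0.19 in the shortest group to below 0 from the fifth on, while the WT libraries stay between -0.04 and 0.05.

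At the level of single transcripts more differences passed than at the level of genes. Of 17329 transcripts tested, 62 (0.358%) passed an adjusted p under 0.05, 21 higher and 41 lower in CKO sham, in 56 genes, 8 of which also passed as sums. Without WT sham 1, 2 or 3 the count was 1, 0 and 0 (limma), with 1383, 1228 and 1111 transcripts at an unadjusted p under 0.05. In 32 of the 56 genes the sum differed by less than 0.3 (log2), and in 24 another transcript of the gene had an unadjusted p under 0.05 in the opposite direction. Of the 62 transcripts 31 were under 0.5 FPKM in every CKO sham library and 8 in every WT sham library.

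Ash1l, a histone H3 lysine methyltransferase, is an example of such an exchange. Ash1l-201 was listed at 0 in all WT sham libraries and at 5.19, 6.12 and 5.56 FPKM in CKO sham. Ash1l-202 was at 5.19, 5.12 and 5.37 in WT sham and at 0.07 or less in CKO sham, and the gene's sum differed by 0.09. Rapgef2, an exchange factor for Rap GTPases, did the same, with Rapgef2-201 at 3.75, 3.46 and 3.82 FPKM in WT sham and 0 in CKO sham, and Rapgef2-206 at 0.0400, 0.0695 and 0.0357 against 3.13, 3.46 and 3.26. Skp1a-203, of a subunit of SCF ubiquitin ligases, was at 70.7, 67.4 and 43.7 FPKM in WT sham and at 0.04 in CKO sham, beside Skp1a-201 at 119, 104 and 124 against 200.5, 189 and 193. Net1-201, of a RhoA exchange factor, was at 18.3, 17.0 and 19.4 against 0.0545, 0 and 0 FPKM. Mtfr1-203, of a regulator of mitochondrial fission, was at 31.0, 28.8 and 28.96 FPKM in WT sham and 0 in CKO sham. Diaph1-201, of an actin-nucleating formin, was at 13.7, 13.5 and 13.9 against 0, 0 and 0.0335.

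**Figure D5:**
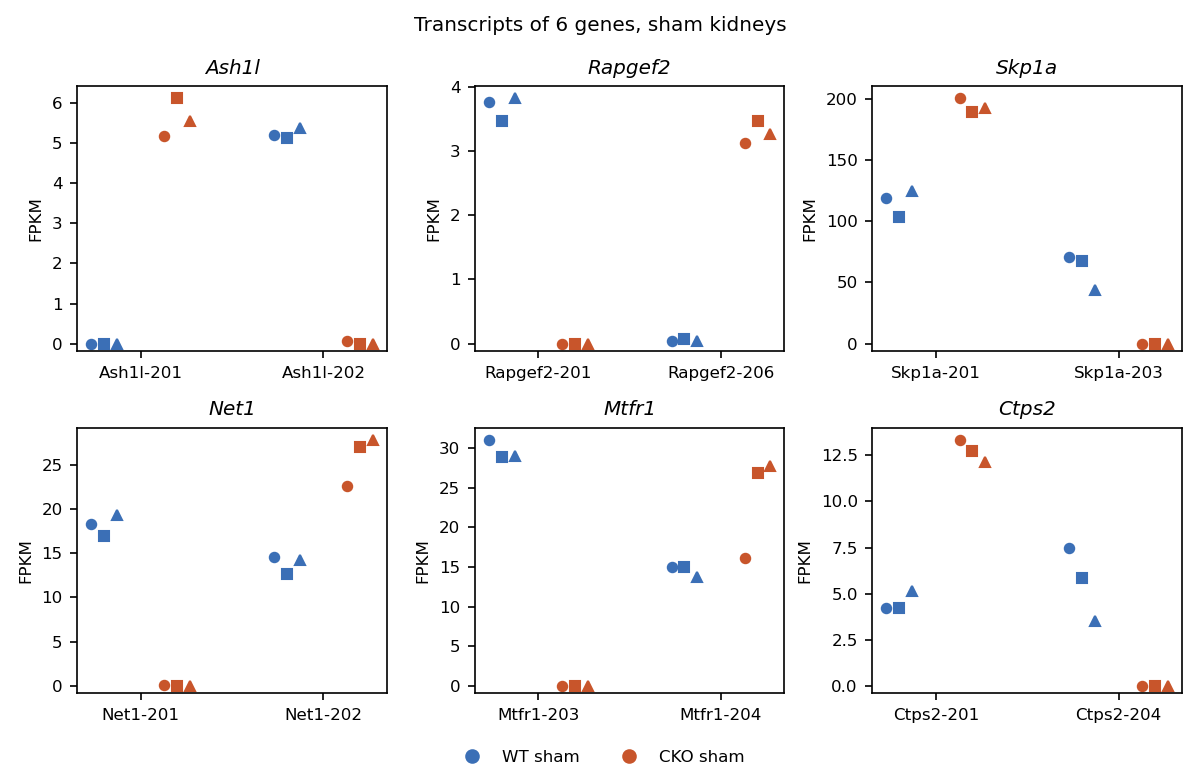
FPKM of a pair of transcripts of each of 6 genes in the sham libraries (points; blue, WT; orange, CKO). For Ash1l and Rapgef2 the transcript present in WT is at or near 0 in CKO and the other way round, while Net1-202 and Mtfr1-204 are present in both groups.

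Some of these transcripts were present in 1 library and near 0 in another of the same group after IRI. Ash1l-201 was at 0 in 5 of the injured libraries and at 5.39 FPKM in CKO IRI 15, and Ash1l-202 was at 4.25 to 5.17 in those 5. Rapgef2-206 was at 2.31 FPKM in WT IRI 13 and at 0.02 or less in the other injured libraries. Mtfr1-203 was at 0 in all 6 injured libraries. Of the 62 called transcripts 36 (58.1%) were under 0.5 FPKM in 1 library and at 2 FPKM or more in another of the same injured genotype, against 12.3% of all tested transcripts. The called ones were chosen by their sham values, and 31 were under 0.5 FPKM in every CKO sham library. Another 8 were so in every WT sham library, so the shares are not of like sets. An assignment of reads between near-identical transcripts that falls one way in each library and a change in splicing cannot be told apart from these values.

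None of the 9 sham calls that could be tested after IRI passed there. Of 12113 genes tested between CKO IRI and WT IRI, 0 (0%) passed (limma), and 1292 (10.7%) had an unadjusted p under 0.05. Of the 11 sham genes 9 were tested there, 6 differed in the same direction and 0 had an unadjusted p under 0.05. Zfp422 was at 12.4, 15.2 and 1.22 FPKM in WT IRI and at 1.63, 1.37 and 1.58 in CKO IRI, so WT IRI 49 lay below all knockout libraries. Its difference was -1.63 ± 0.71 (SE) after IRI and -2.34 ± 0.12 in sham kidneys. Srsf4 was at 9.87, 43.8 and 27.7 against 6.63, 32.6 and 4.24, and Sfrp2 at 1.29, 0.926 and 1.70 against 1.04, 1.79 and 1.54. In the test of the difference itself, 0 of the 11 passed and 2 genes of all did, Pofut2 and Tmem67, neither of which passed in sham kidneys.

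The interferon genes stood differently after injury, and so did other lists. Of 30 members tested there, 23 were lower in CKO than in WT, and the median was -0.20, against 0.57 in sham kidneys. Of 11469 genes tested in both settings, 53.7% were lower in CKO IRI, with a median of -0.04. The sham and IRI contrasts share no library, but the interaction test uses both. In that test (limma), 14 of 31 members had an unadjusted p under 0.05, and 0 passed. All 14 had a lower knockout difference after IRI, against 10.4% of all tested genes in that direction. The list stood higher in the sham libraries that enter this test, which favours a lower difference after IRI. The shares are therefore not of like sets. Irf1 was at 17.2, 17.3 and 17.2 FPKM in WT IRI and 10.5, 9.31 and 5.38 in CKO IRI, and Isg15 at 16.02, 8.67 and 14.5 against 5.42, 8.61 and 9.99 (-0.64). Medians of other lists changed sign too, from 0.298 to -0.676 for tubular injury and from 0.244 to -0.723 for NF-kB and cytokines. Ribosomal protein genes went from 0.315 to -0.302. The mitochondrial genome (0.303 and 0.623) and nuclear oxidative phosphorylation (0.292 and 0.147) kept their direction. With the length trend removed, the sham medians were 0.1 and 0.021 for these lists and 0.053 for ribosomal proteins. That correction was not made after IRI.

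Some genes differed more within a group than between groups. Among CKO sham libraries the widest ranges were in Cldn2, the claudin of the proximal tubule, at 3.58, 164 and 158 FPKM, in Ugt1a9 and Ugt1a6b given above, and in Fmo2, Adnp, Rnf24, Kctd12 and Aldh6a1. Adnp was at 0.0152, 13.1 and 11.8, Kctd12 at 11.6, 10.4 and 0, and Aldh6a1, an enzyme of valine breakdown, at 6.31, 32.6 and 88.1 FPKM. The library that stood low was not always CKO sham 1. Among WT sham libraries the widest ranges were in Clptm1, Qars, Rnf26, Cipc, Lrp5, Poglut1, Uri1 and Mfsd9, for example Clptm1 at 0.0719, 15.02 and 25.6 and Lrp5, a Wnt coreceptor, at 14.1, 1.10 and 14.7. None of these 16 genes passed the test between genotypes (limma, adjusted p from 0.28 to 0.943). Genes picked for a wide spread within a group can hardly pass that test.

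Jmjd4 lies 4.55 Mb from Gpx3 on chromosome 11. Within 10 Mb of Gpx3, 54 of 163 tested genes (33.1%) had groups that did not overlap. This held for 30.6% of 996 genes on chromosome 11 and for 3403 of 11715 over all genes. Of the 163 genes 1 passed (limma), beside 2 of the 996 and 11 of the 11715 (0.0939%). Whether genes near Gpx3 differ from the others in these shares was not tested.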

How the data were processed

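Total RNA of mouse renal cortex was sequenced in 12 libraries, 6 of them from sham kidneys. Per the labels' protocols, libraries were random-primed and strand-marked with dUTP. The submitters' processing notes name cutadapt, HISAT2 2.1.0, StringTie and build GRCh38, although the identifiers are mouse. The authors deposited 1 table of 25790 transcripts, read here as FPKM: its header names no unit, and TPM would differ by 1 factor per library. Depth is unknown, so no interval for counting error is given. Transcripts were matched to GENCODE M21 (GRCm38), 25740 of them, and summed per gene.

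Genes reaching 1 FPKM in 3 or more of the sham libraries were fitted with limma 3.58.1 in R 4.3.3 on log2(FPKM + 1) with a mean-variance trend and 1 mean per group. Tests were two-sided, with Benjamini-Hochberg adjustment over all genes tested. Since 1 is added before the logarithm, differences of low genes are understated. The fit was tested on simulated data. Gene lists were described by counts and medians. Members and lists were chosen with earlier results of these data known. Named genes were Gpx3, the 12 of smallest p in each direction with groups that do not overlap (those past the threshold first), up to 4 members of smallest p in each described list with its large differences and its defining members, and the 8 widest ranges per group. Predicted and clone names were left out of these ranks. The alternatives were other pseudocounts, filters, scalings, weights and fits, and leaving out each library. Single values of 3 list members are not reported here, while list counts and medians include them.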

Additional observations from a re-analysis of the deposited data

How the results depend on the processing

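With limma, the direction of Gpx3 and its failure to pass held in all 17 alternatives (differences from -0.99 to -0.70). The counts of 7 genes higher and 4 lower stayed within 1.5 times under pseudocounts of 0.1 and 0.5, no filter, quantile normalization, median scaling and no trend. A filter of 5 FPKM left 4 higher, array weights gave 14 lower, and removing the length trend gave 7 lower. A spread shared by all 12 libraries gave 0 and 0, with 796 genes at an unadjusted p under 0.05. Leaving out 1 library gave 0 to 3 higher and 0 to 8 lower. The 62 transcripts became 17 with the 5 FPKM filter, 8 with all 12 libraries and 0 to 80 without 1 library. After IRI the count was 0, and 0 to 1 without 1 library, 1 without WT IRI 49. Among described lists, medians changed sign for NF-kB and cytokines (0.244, and -0.086 with the 5 FPKM filter), glutathione peroxidases (0.144, and -0.027 with the length trend removed), superoxide dismutases and peroxiredoxins (0.047, and -0.014 with quantile normalization), NRF2 targets (-0.054, and 0.004 without CKO sham 1), principal cells (-0.083, and 0.003 with no filter), conjugation genes (0.066, and -0.018 without CKO sham 3) and immediate early genes (-0.022, and up to 0.103 without CKO sham 3). The median of proximal tubule enzymes also changed sign (-0.057, and 0.035 without CKO sham 1).

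No pairing by replicate number was seen: deviations of same-numbered libraries correlated at 0.00726, -0.0306 and -0.0033. With 3 libraries per group these values cannot exclude a pairing. With a replicate block, 0 genes were higher and 0 lower and 0 transcripts passed (limma), with 1698 genes and 1742 transcripts at an unadjusted p under 0.05.

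Read depth is unknown, so the counting error of low genes such as Zbed6 and Jmjd4 cannot be given.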
